A study of Mus musculus with 30 samples.

Results

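Untreated microglia cultured from the adult mouse brain (Protocol 2) were set against untreated microglia cultured from the newborn brain (Protocols 1A, 1B and 1C). The comparison used the Control libraries of these 4 culture protocols, 3 from each, which made 12 of the 30 RNA-seq libraries of the series. The tested quantity was Protocol 2 against the mean of 1A, 1B and 1C. The study itself asked how the isolation and culture of microglia shape their transcriptome and their answer to the alarmin HMGB1, and none of the 12 libraries had received HMGB1.

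All groups came from C57BL/6 mice (written C57/B6 in the labels), and no genotype or transgene differed among them. Protocol 2 cells came from mice of 6 to 8 weeks, with the cells of 3 brains pooled in each flask, and grew for 7 days under M-CSF and GM-CSF, each at 100 ng/ml. Adherent contaminants were then removed by mild trypsin. Protocol 1 cells came from mixed glial cultures of 5 pups of postnatal day 0 to 3 and were shaken off the astrocyte layer. Protocol 1A used 0.5 ng/ml GM-CSF for 10 days, Protocol 1B used no added factor for 10 days, and Protocol 1C used 0.5 ng/ml GM-CSF for 21 days. All cells spent the last night in serum-free medium. Age, isolation, growth factors and days in culture therefore changed together between Protocol 2 and Protocol 1, and their parts cannot be told apart. The replicates of Protocol 1 were separate litters. The labels call the Protocol 2 libraries biological replicates, and a figure caption of the study describes its adult isolations as coming from distinct mice. How the Protocol 2 replicates were drawn from the pooled brains was not given in the sources used here, so part of the spread among them may be technical.

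Microglia are the resident macrophages of the brain. They depend on signals through the receptor CSF1R, and TGF-beta signalling together with the transcription factor Sall1 keeps up the set of genes called homeostatic. In culture they lose part of that set, divide when glia or growth factors support them, and take up the programs of activated macrophages, such as the type I interferon response, in which secreted interferon acts through factors of the STAT and IRF families on promoters that carry an interferon-stimulated response element.

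Protocol 2 libraries held 24155301 to 24549108 gene counts with 21636 to 23046 genes detected, and Protocol 1 libraries held 15824006 to 21497681 counts with 19429 to 21383 genes. Of 17033 genes tested, 5228 (30.7%) were higher and 4189 (24.6%) were lower in Protocol 2 at an adjusted p below 0.05 in edgeR's quasi-likelihood test, and the median log2 fold change of all genes was 0.02. The 3 Protocol 2 libraries lay above all 9 Protocol 1 libraries for 3222 genes (18.9%) and below all of them for 2617 genes (15.4%). A count of members in a gene list is read against these shares throughout. Changes of at least 2-fold were more often upward (2970 genes) than downward (837 genes). Levels are given in CPM, read counts brought to a common library size with TMM factors, fold changes are log2 of Protocol 2 over Protocol 1, and their errors are standard errors (SE). In such bulk libraries, fewer cells of a type and less RNA per cell cannot be told apart.

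The labels did not give the sex of the donors, and sex-linked genes differed between the groups. Xist, the RNA of the inactive X chromosome, was present in all 12 libraries, at 693, 715 and 626 CPM in Protocol 2 and at 229.9 to 499 CPM (median 397) in Protocol 1. The Y-linked gene Ddx3y had no count in any Protocol 2 library, against 15.02 to 46.7 CPM (median 27.9) in Protocol 1. Kdm5d, Uty and Eif2s3y, also on the Y chromosome, had no count in Protocol 2 either, and their Protocol 1 libraries spanned 7.18 to 17.9 CPM, 7.77 to 17.8 CPM and 9.87 to 31.1 CPM. Against a floor of 3 counts over the 3 Protocol 2 libraries, Ddx3y was at least 701-fold lower in Protocol 2. Y-linked transcripts were thus counted in all 9 Protocol 1 libraries and in none of Protocol 2. Sex went with the protocol, and its part in the results below cannot be told apart from that of age or culture.

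Markers of microglia were detected in every library, and their summed level was higher in Protocol 2, at 3018 to 3446 CPM against 1747 to 2742 CPM in Protocol 1. The summed markers of several other cell types were higher in Protocol 2 as well, and those of others overlapped or were lower. Astrocyte markers summed to 283 to 303 CPM in Protocol 2 and to 37.0 to 98.9 CPM in Protocol 1, and fibroblast markers to 254 to 434 CPM and to 2.30 to 134 CPM in the same order. Of the 12 astrocyte markers tested, 10 were higher and 1 was lower, the aldolase gene Aldoc. Choroid plexus and ependymal markers summed to 115 to 167 CPM in Protocol 2 and to 0.941 to 39.1 CPM in Protocol 1, and 2 of their 9 members had no count in Protocol 1. Pituitary markers reached 24.7 to 308 CPM in Protocol 2 and at most 0.308 CPM in Protocol 1, where 6 of 8 had no count. Endothelial markers summed to 197 to 209 CPM in Protocol 2 and 103 to 196 CPM in Protocol 1, where 4 of 15 had no count. Of these 15 markers, 12 were higher in Protocol 2 and none lower. Oligodendrocyte sums overlapped, at 199 to 312 CPM in Protocol 2 and 138 to 279 CPM in Protocol 1, as did the monocyte sums, at 513 to 559 CPM in Protocol 2 and 279 to 981 CPM in Protocol 1. Even so, 8 of the 11 oligodendrocyte markers tested were higher and none lower. Of the 14 monocyte markers tested, 5 were higher and 3 lower. Border macrophage sums overlapped too, at 2585 to 2747 CPM in Protocol 2 and 2181 to 4443 CPM in Protocol 1, as did the low neuron sums. Of the 12 border macrophage markers tested, 3 were higher and 4 lower. Of the 7 neuron markers tested, 5 were higher and none lower. Mural cell markers summed to less in Protocol 2, at 685 to 738 CPM against 898 to 1355 CPM in Protocol 1. Most of that sum was Anpep, an aminopeptidase (-0.62 ± 0.086), and of the 10 mural markers tested 7 were higher and 2 lower. T and NK cell markers were low but did not overlap, at 1.33 to 2.59 CPM in Protocol 2 and 0.179 to 0.884 CPM in Protocol 1. B cell markers summed to 11.4 to 13.2 CPM in Protocol 2 and 0.410 to 2.89 CPM in Protocol 1. Mast cell markers summed to 2.87 to 6.28 CPM in Protocol 2 and at most 1.05 CPM in Protocol 1. The part that these other cells had in the fold changes was not tested.

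**Figure D1:**
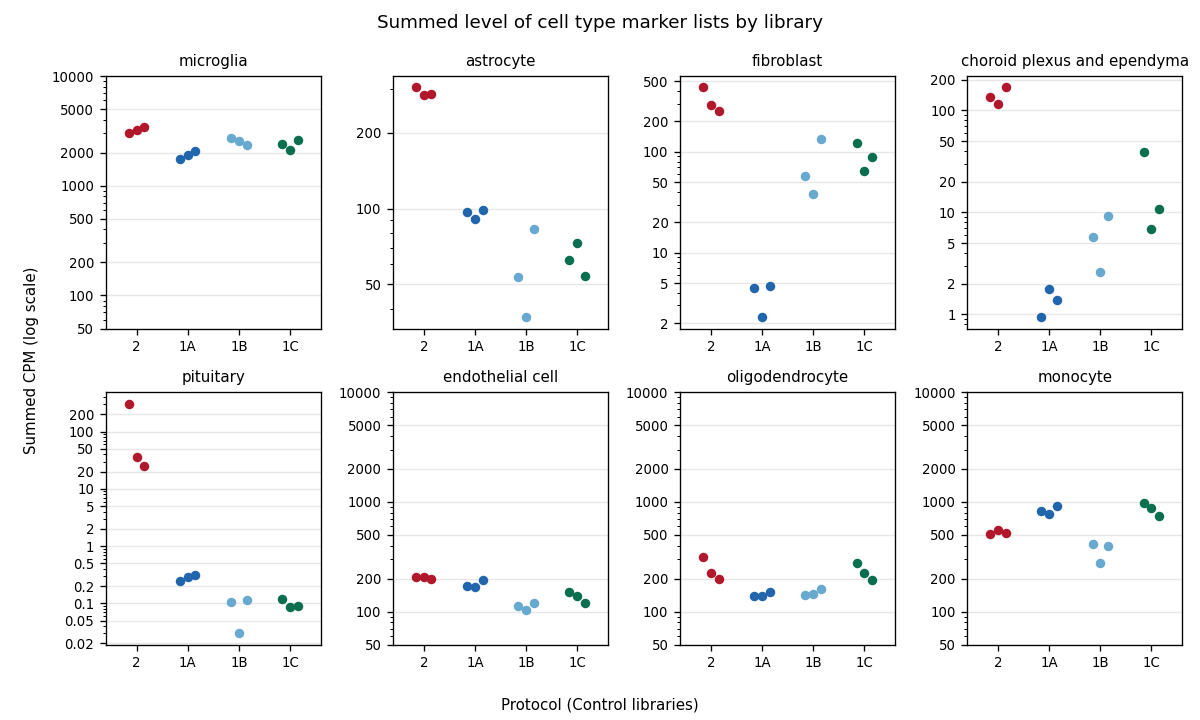
Summed CPM of 8 marker lists in each of the 12 Control libraries (log scale, points are libraries, Protocol 2 left of 1A, 1B and 1C). Astrocyte, fibroblast, choroid plexus and pituitary sums of Protocol 2 lie above those of every Protocol 1 library, while oligodendrocyte and monocyte sums overlap. Sums below 0.03 CPM are drawn at 0.03.

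Among the 10 protein-coding genes with the largest rise, several belonged to those other cell types. Prl, the pituitary hormone prolactin, had 257, 28.9 and 18.1 CPM in Protocol 2 and no count in any Protocol 1 library, which made it at least 6221-fold higher over a floor of 3 counts. The first Protocol 2 replicate thus carried most of the pituitary RNA, and the call of Prl was lost when the fit held only the 12 libraries (adjusted p = 0.0543). Rgs5, a gene of pericytes, had 29.6, 7.33 and 11.7 CPM in Protocol 2 and no count in Protocol 1, at least 995-fold. Slc13a3, a sodium-coupled dicarboxylate transporter, had 187, 143 and 170.4 CPM in Protocol 2 and 0.246 to 1.74 CPM (median 0.718) in Protocol 1, a log2 fold change of 7.86 ± 0.15 (adjusted p = 9.89e-16). Lcn2, the secreted iron-siderophore binder lipocalin 2, had 43.6, 39.3 and 36.997 CPM in Protocol 2 against 0.115 to 0.717 CPM (median 0.182) in Protocol 1 (7.45 ± 0.25). Both genes were close to absent in every Protocol 1 library and even among the Protocol 2 replicates, unlike Prl. Of the 12 neutrophil markers, of which Lcn2 is one, 5 were higher and none lower, and 6 had no count in Protocol 2, Ngp and Retnlg among them. The neutrophil sums overlapped, at 61.5 to 70.5 CPM in Protocol 2 and 2.70 to 67.2 CPM in Protocol 1. Chil1, a chitinase-like protein of astrocytes and activated macrophages, showed the same picture, with 25.9, 26.98 and 26.3 CPM in Protocol 2 and 0 to 0.272 CPM (median 0.123) in Protocol 1.

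The largest falls outside the Y chromosome were of transporters and lipid genes. Slco2b1, an organic anion transporter found in brain macrophages, had 0.164, 0.583 and 0.594 CPM in Protocol 2, against 9.94, 8.48 and 7.54 in 1A, 50.1, 35.4 and 35.5 in 1B and 51.4, 49.4 and 46.3 in 1C. Its log2 fold change was -5.84 ± 0.29, and 1A stood between the other variants and Protocol 2. Pde1c, a cyclic nucleotide phosphodiesterase, had 0.860, 1.08 and 1.15 CPM in Protocol 2 and 8.56 to 66.6 CPM (median 13.6) in Protocol 1 (-4.29 ± 0.21). Atp8b4, a phospholipid flippase subunit, had 5.65, 5.83 and 5.01 CPM in Protocol 2 and 27.7 to 135 CPM (median 52.5) in Protocol 1 (-3.44 ± 0.20).

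Homeostatic microglia genes were mostly higher in Protocol 2. Of 36 tested, 27 rose and 3 fell, the median log2 fold change was 1.34, and 22 lay above all Protocol 1 libraries. Some members passed the filter only with the libraries of the protocol that was not compared. In the fit of the 12 libraries alone, 32 were tested, 23 rose and 3 fell, and the median was smaller. Sall1, the transcription factor that marks microglia among macrophages, had 37.2, 44.2 and 43.02 CPM in Protocol 2, against 3.93, 2.54 and 1.90 in 1A, 12.2, 11.3 and 9.47 in 1B and 3.05, 2.92 and 3.81 in 1C. It rose by 3.15 ± 0.12 on the log2 scale (adjusted p = 1.81e-13), and 1B held the highest level of the 3 variants. P2ry12, the ADP receptor that guides processes to injury, had 28.2, 43.5 and 45.1 CPM in Protocol 2 and 6.55 to 14.3 CPM (median 12.2) in Protocol 1, a change of 1.80 ± 0.16. Tmem119, a microglial membrane protein, was low in all groups, at 5.40, 4.83 and 5.09 CPM in Protocol 2 and 1.00 to 2.33 CPM (median 1.91) in Protocol 1 (1.60 ± 0.20). In these 3 genes no Protocol 1 library reached any Protocol 2 library. Siglech, a defining sialic acid binding lectin of microglia, stayed near the detection limit, at 0.532, 0.916 and 0.467 CPM in Protocol 2 and at most 0.256 CPM in Protocol 1.

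The 3 genes of the list that fell were Cx3cr1, Csf1r and Fcrls, all receptors or receptor-like. Cx3cr1, the receptor of neuronal fractalkine, had 9.66, 7.66 and 7.55 CPM in Protocol 2 and 21.8 to 44.3 CPM (median 32.6) in Protocol 1, and it fell by 1.92 on the log2 scale (SE 0.24, adjusted p = 3.29e-05). Csf1r, the receptor of M-CSF and IL-34, had 563, 636 and 688 CPM in Protocol 2 and 823 to 1411 CPM (median 1216) in Protocol 1 (-0.84 ± 0.076). Fcrls, an Fc receptor-like protein, had 59.2, 55.4 and 55.9 CPM in Protocol 2 and 52.5, 55.9 and 69.4 in 1A, 404, 398 and 326 in 1B and 84.3, 81.4 and 109 in 1C. It fell against the mean (-1.16 ± 0.10), against 1B (-2.73) and against 1C (-0.69), and did not pass against 1A (-0.06). Gpr34, a lysophosphatidylserine receptor, rose by 0.76 ± 0.12 against the mean, with 26.3, 33.5 and 34.96 CPM in Protocol 2, 7.69, 7.14 and 9.79 in 1A, 49.9, 38.3 and 33.4 in 1B and 19.5, 16.3 and 22.9 in 1C, so that 1B lay at or above Protocol 2.

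Both ligands of CSF1R were higher while the receptor was lower. Of 29 members of the CSF and STAT5 pathway tested, 21 were higher and 5 lower. Csf1, which encodes M-CSF, had 96.1, 112 and 105 CPM in Protocol 2 and 12.8 to 50.997 CPM (median 21.7) in Protocol 1 (2.13 ± 0.10). Il34, the second ligand of CSF1R, had 1.27, 0.958 and 0.679 CPM in Protocol 2 and at most 0.158 CPM in Protocol 1. Socs3, a feedback inhibitor of cytokine receptors, had 24.7, 13.4 and 17.9 CPM in Protocol 2 and 1.91 to 8.25 CPM (median 4.59) in Protocol 1 (2.19 ± 0.21). Bcl2a1a, an anti-apoptotic gene whose near-identical copies may share reads, had 37.6, 37.4 and 33.3 CPM in Protocol 2, 6.79, 6.52 and 6.92 in 1A, 0.684, 0.791 and 0.866 in 1B and 20.6, 16.1 and 14.9 in 1C. It was lowest in 1B, the variant without GM-CSF, and highest in Protocol 2. Csf2rb, the shared beta chain of the GM-CSF receptor, did not pass, with 283, 284 and 291 CPM in Protocol 2 and 152 to 444 CPM (median 387) in Protocol 1 (-0.02 ± 0.073). The signal transducers Stat5a (-0.45 ± 0.088) and Stat5b (-0.52 ± 0.074) were lower.

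Purine receptors, through which microglia sense ATP and its breakdown products, were higher in 10 of 17 and lower in 1. P2rx4, an ATP-gated channel, had 480.1, 568 and 608 CPM in Protocol 2 and 193 to 348 CPM (median 215) in Protocol 1 (1.18 ± 0.078). Adora3 (2.15 ± 0.18) and Adora1 (3.78 ± 0.63), receptors of adenosine, were higher too, with 1.43, 1.42 and 1.53 CPM of Adora1 in Protocol 2 and at most 0.836 CPM in Protocol 1. P2rx7, the channel that leads to IL-1 release, did not pass (-0.08 ± 0.091), nor did the UDP receptor P2ry6 (0.03 ± 0.063), and P2ry2 was lower (-0.76 ± 0.10).

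TGF-beta receptors and SMADs were higher in 14 of 19 members and lower in 2. Smad3, which carries the signal to the nucleus, had 39.3, 36.9 and 42.6 CPM in Protocol 2 and 8.20 to 20.8 CPM (median 17.5) in Protocol 1 (1.46 ± 0.082). Eng, a co-receptor that endothelial cells and macrophages express, had 143, 191 and 167 CPM in Protocol 2 and 9.38 to 14.05 CPM (median 12.6) in Protocol 1 (3.79 ± 0.092). The ligand gene Tgfb1 was lower, at 293, 269 and 293 CPM in Protocol 2 and 393 to 453 CPM (median 424) in Protocol 1 (-0.57 ± 0.058), and the receptor gene Tgfbr1 did not pass (-0.10 ± 0.076).

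Among transcription factors, the lineage and activation list gave 19 higher and 9 lower of 46. Spi1, the master factor of macrophages, did not pass, with 372, 365 and 420.5 CPM in Protocol 2 and 311 to 434 CPM (median 386) in Protocol 1. Maf (0.91 ± 0.10) and Cebpa (1.12 ± 0.092) were higher. Pparg, the lipid-sensing nuclear receptor of alveolar and lipid-laden macrophages, had 11.3, 12.8 and 11.2 CPM in Protocol 2 and 27.2 to 52.5 CPM (median 41.1) in Protocol 1, and it fell by 1.79 (SE 0.091). Egr2 (-1.66 ± 0.17) and Bhlhe40 (-0.98 ± 0.082) were lower too. The zinc finger gene Peg3, which is expressed from the paternal allele, had 25.6, 21.3 and 24.7 CPM in Protocol 2, against 0.286, 0 and 0.103 in 1A, 1.26, 0.977 and 1.85 in 1B and 1.43, 1.74 and 1.63 in 1C (5.13 ± 0.20). Tead1, a partner of YAP in adherent cells, had 13.1, 11.1 and 9.46 CPM in Protocol 2 and 0.0479 to 3.29 CPM (median 1.000) in Protocol 1 (3.90 ± 0.30). Both were lowest in 1A. The fibroblast marker sum was lowest in 1A as well, and its part in these differences was not tested.

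**Figure D2:**
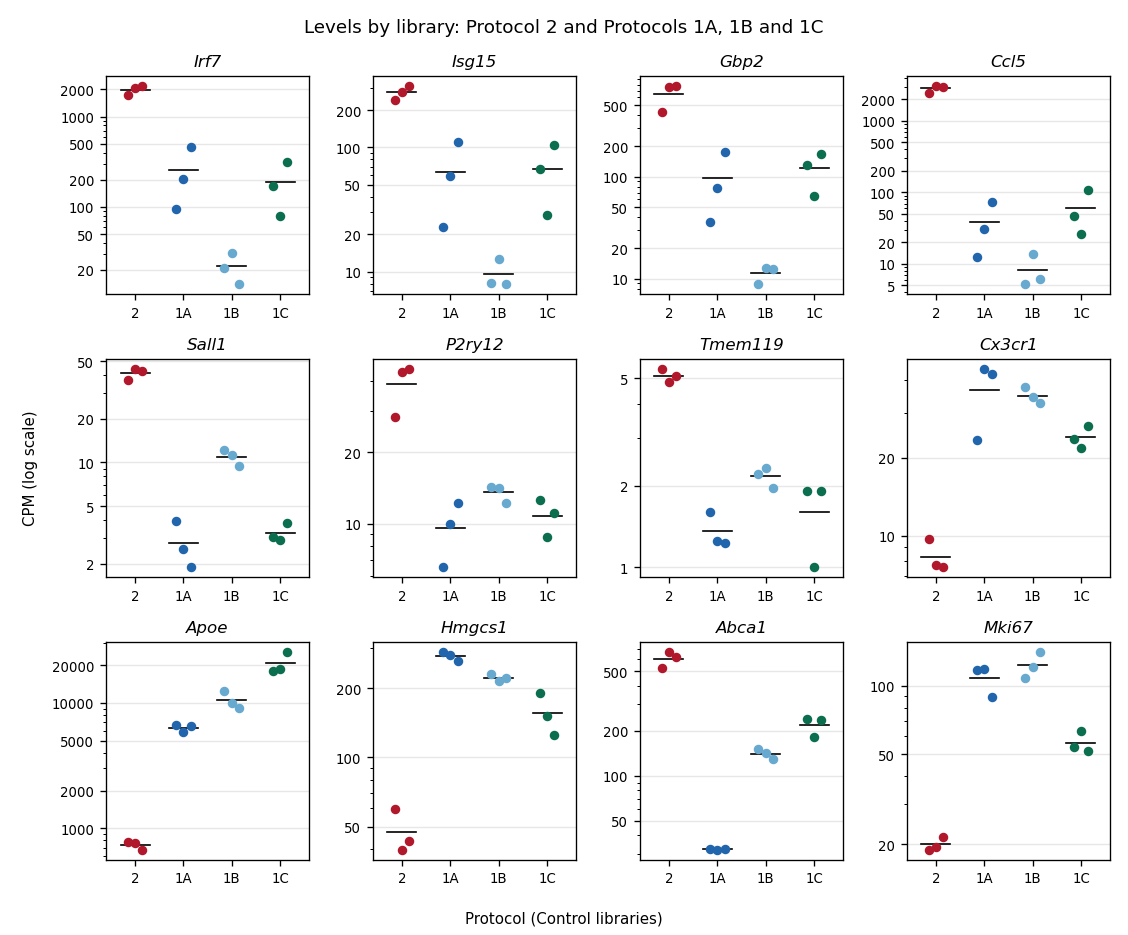
CPM of 12 genes in each of the 12 libraries (log scale), with Protocol 2 left of 1A, 1B and 1C and a line at each group mean. Protocol 2 lies above all Protocol 1 libraries for Irf7, Isg15, Gbp2, Ccl5, Sall1, P2ry12, Tmem119 and Abca1 and below all of them for Cx3cr1, Apoe, Hmgcs1 and Mki67.

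Interferon response genes were higher in Protocol 2 almost throughout. Of 43 interferon response genes tested, 41 were higher and none lower, with a median log2 fold change of 2.20, and 33 lay above all Protocol 1 libraries. The ligand gene Ifnb1 had 1.39, 1.21 and 0.806 CPM in Protocol 2 and at most 0.154 CPM in Protocol 1 (5.46 ± 0.56). Of the transducers, Irf9 had 95.8, 99.3 and 99.2 CPM in Protocol 2 and 29.1 to 86.01 CPM (median 56.03) in Protocol 1 (0.81 ± 0.15). Stat2 rose by 1.28 ± 0.26, although the highest Protocol 1 library (357 CPM) lay above the lowest Protocol 2 library (283 CPM). Irf7, the factor that amplifies interferon production, had 1723, 2048 and 2174 CPM in Protocol 2, against 95.03, 202 and 463 in 1A, 21.2, 30.9 and 13.9 in 1B and 169, 79.5 and 312 in 1C.

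Effector genes followed, and the Protocol 1 libraries differed more among themselves than the Protocol 2 libraries did. Isg15, the ubiquitin-like modifier, had 243, 278 and 312 CPM in Protocol 2, against 22.7, 58.4 and 109.95 in 1A, 8.05, 12.7 and 7.91 in 1B and 67.04, 28.6 and 105 in 1C, and it rose by 3.01 ± 0.40 (adjusted p = 7.11e-05). Oasl1, which binds double-stranded RNA, had 91.9, 134 and 149 CPM in Protocol 2, 5.85, 11.9 and 30.04 in 1A, 0.737, 2.14 and 0.231 in 1B and 10.9, 4.80 and 20.3 in 1C (4.40 ± 0.46). In both genes the third replicates of 1A and 1C were the highest of their group, and 1B was the lowest variant. Ifit1, an inhibitor of viral translation, had 299, 407 and 399 CPM in Protocol 2 and 5.54 to 125 CPM (median 33.6) in Protocol 1 (3.12 ± 0.44). Ifi203 (0.71 ± 0.30) and Ifi27l2a (-0.05 ± 0.19) were the members that did not pass, and Ifi203 did without the third 1A replicate (0.87).

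The spread among the Protocol 1 variants was itself tested. All 43 members differed among 1A, 1B and 1C at an adjusted p below 0.05 (edgeR), against 38.6% of all genes. The median log2 fold change of the list was 1.5 over 1A, 3.61 over 1B and 1.34 over 1C. Against 1A 34 members were higher and 1 lower (29.4% and 23.4% of all genes), against 1B all 43 were higher (25.4% of all genes higher and 23% lower), and against 1C 23 were higher and none lower (23.4% of all genes higher and 21.5% lower). These 3 comparisons share the Protocol 2 libraries.

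Guanylate-binding proteins and immunity-related GTPases, which attack vacuoles of intracellular microbes, rose without exception among the 16 tested, with a median log2 fold change of 3.36. Gbp2 had 434, 752 and 774 CPM in Protocol 2, against 35.97, 77.8 and 176 in 1A, 8.84, 12.8 and 12.4 in 1B and 130.5, 64.8 and 167 in 1C (3.68 ± 0.39). Gbp7 had 62.6, 93.3 and 89.4 CPM in Protocol 2 and 4.16 to 55.3 CPM (median 21.3) in Protocol 1 (2.23 ± 0.29). Tgtp1, whose copy Tgtp2 may share its reads, had 8.48, 12.3 and 10.4 CPM in Protocol 2 and 0.0526 to 0.465 CPM (median 0.262) in Protocol 1 (5.35 ± 0.27). The lowest Protocol 2 library was above the highest Protocol 1 library in 14 of the 16.

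The promoters of these genes were searched for the element that interferon signalling is known to use. The interferon-stimulated response element was searched as GAAANNGAAA on both strands of the RefSeq promoter windows (GRCm38.p6, 250 bases before to 50 after each start). It was found for 20 of 32 interferon response genes with a window (62.5%) and for 10 of 11 guanylate-binding protein and GTPase genes (90.9%). Of all 11504 tested genes with a window, 3.93% held it. A match describes the sequence and does not show that a factor was bound. The stretches below are shown because their genes carry the rise, with the element in capitals and the surrounding bases in lower case, each read on the strand of its gene at chr4:156200850-156200909, chr19:34640779-34640838, chr8:71537562-71537621, chr3:142620579-142620638 and chr3:142530258-142530317.
Isg15: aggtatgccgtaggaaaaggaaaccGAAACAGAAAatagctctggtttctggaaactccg
Ifit1: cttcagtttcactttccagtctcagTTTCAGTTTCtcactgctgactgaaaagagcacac
Bst2: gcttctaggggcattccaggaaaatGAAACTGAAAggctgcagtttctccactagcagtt
Gbp2: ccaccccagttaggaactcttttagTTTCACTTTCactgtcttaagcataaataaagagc
Gbp7: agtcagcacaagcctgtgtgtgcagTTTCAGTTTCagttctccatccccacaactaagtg

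The match nearest the start began 66 bases before the start of Isg15, 85 before that of Ifit1, 124 before that of Bst2, 59 before that of Gbp2 and 53 before that of Gbp7. In Ifit1, Gbp2 and Gbp7 it lay on the strand opposite to the gene, so that the strand shown reads TTTCNNTTTC. Bst2, which tethers budding virions, had 1003, 1038 and 1147 CPM in Protocol 2 and 186 to 574 CPM (median 285) in Protocol 1 (1.70 ± 0.21). The GAS element TTCNNNGAA, known from interferon-gamma signalling, was present for 6 of 11 guanylate-binding protein and GTPase genes and for 8.23% of all tested genes.

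Class I MHC genes, which present peptides from inside the cell, were mostly higher, and class II genes were mixed. Of 21 class I genes, 18 were higher and 2 lower. H2-K1, a classical class I heavy chain, had 3018, 3522 and 3652 CPM in Protocol 2 and 634 to 1829 CPM (median 1110.2) in Protocol 1 (1.63 ± 0.15). Tap1, the peptide transporter, had 225, 307 and 294 CPM in Protocol 2 and 37.6 to 162 CPM (median 71.2) in Protocol 1 (1.88 ± 0.26). H2-Q6 and H2-Q7 rose by 5.56 ± 0.40 and 5.01 ± 0.30, but these near-identical copies may share reads. Of 18 class II and costimulation genes, 10 were higher and 1 lower. Dendritic cell markers summed to 281 to 291 CPM in Protocol 2 and 52.5 to 214 CPM in Protocol 1, but most of each sum was Itgax, which is also on the list of disease-associated microglia genes, while the dendritic cell factor Zbtb46 had 2.87, 3.04 and 2.93 CPM in Protocol 2 and 1.25 to 3.23 CPM (median 2.26) in Protocol 1. Cd74, the invariant chain, had 29.7, 36.6 and 41.9 CPM in Protocol 2, against 26.7, 47.6 and 80.4 in 1A, 3.42, 5.40 and 5.54 in 1B and 53.8, 61.3 and 80.8 in 1C, and did not pass against the mean (0.51 ± 0.27). H2-Aa, a class II chain, did not pass either (1.59 ± 0.66). Without the third 1A replicate both were called higher (0.67 and 1.79), and H2-Aa also without the first 1A replicate (1.43). Both were lowest in 1B, where Cd74 was 2.91 log2 units below Protocol 2, and at or above Protocol 2 in most libraries of 1A and 1C. Among costimulatory genes, Cd86 had 179, 253 and 234 CPM in Protocol 2 and 20.7 to 58.8 CPM (median 41.9) in Protocol 1 (2.54 ± 0.12), and the inhibitory ligand Cd274 had 300.4, 416 and 388 CPM and 28.2 to 152 CPM (median 80.5) in the same order (2.36 ± 0.18).

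Of 25 chemokine genes, 17 were higher, all by at least 2-fold, and 3 lower. Ccl5, which attracts T cells and monocytes, had 2486, 3068 and 3026 CPM in Protocol 2, against 12.6, 30.6 and 73.04 in 1A, 5.21, 13.7 and 6.12 in 1B and 46.8, 26.5 and 108 in 1C (6.73 ± 0.49, adjusted p = 6.09e-07). Ccl8, a monocyte attractant, had 56.05, 95.6 and 105 CPM in Protocol 2 and 0.0931 to 6.99 CPM (median 0.316) in Protocol 1 (6.93 ± 0.27). Cxcl1, which draws neutrophils through CXCR2, had 16.5, 18.7 and 14.001 CPM in Protocol 2 and at most 0.956 CPM in Protocol 1 (5.94 ± 0.30). Cxcl9, an interferon-gamma induced ligand of CXCR3, changed by 5.53 ± 0.32. Cxcl14 fell by 1.84, with 12.1, 9.91 and 6.28 CPM in Protocol 2 and 17.98 to 85.4 CPM (median 26.1) in Protocol 1.

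Of 27 cytokine genes, 17 were higher and 3 lower. Il18bp, the secreted trap of IL-18, had 134, 218 and 212 CPM in Protocol 2 and 5.49 to 16.3 CPM (median 6.41) in Protocol 1 (4.42 ± 0.28). Il1rn, the IL-1 receptor antagonist, had 641, 703 and 619.8 CPM in Protocol 2, against 172, 228 and 262 in 1A, 30.04, 48.3 and 50.8 in 1B and 194, 158 and 164 in 1C (2.48 ± 0.14). Il1a had 39.1, 31.5 and 29.6 CPM in Protocol 2 and 2.16 to 14.5 CPM (median 5.89) in Protocol 1 (2.39 ± 0.10). The agonist Il1a and its antagonist Il1rn were thus both higher. Tnf did not pass, with 28.3, 18.4 and 22.2 CPM in Protocol 2 and 18.4 to 37.9 CPM (median 24.98) in Protocol 1, and was called lower without the first Protocol 2 replicate (-0.43). Il6 reached only 2.91, 2.00 and 2.50 CPM in Protocol 2 and 0.144 CPM at most in Protocol 1, a log2 fold change of 6.73 ± 0.47 that rested on few counts in Protocol 1.

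Genes of macrophage effector products were among those higher in Protocol 2. Nos2, the inducible nitric oxide synthase, had 16.7, 24.6 and 20.8 CPM in Protocol 2, against 0.205, 1.39 and 3.90 in 1A, 0.105, 0.512 and 0.173 in 1B and 1.31, 0.218 and 0.727 in 1C (4.87 ± 0.50). Acod1, which makes itaconate, had 153, 179 and 159 CPM in Protocol 2 and 3.74 to 79.5 CPM (median 22.6) in Protocol 1 (2.77 ± 0.35). Ptgs2, the inducible cyclooxygenase, had 43.1, 33.8 and 29.2 CPM in Protocol 2 and 1.63 to 6.31 CPM (median 4.78) in Protocol 1 (3.03 ± 0.20), and Ptges, the prostaglandin E synthase next in the pathway, changed by 2.31 ± 0.24. Arg1, the arginase that competes with NOS2 for substrate, had 4.75, 3.96 and 2.25 CPM in Protocol 2, 9.94, 7.33 and 5.07 in 1A, 3.37, 1.30 and 1.96 in 1B and 81.9, 55.3 and 82.7 in 1C, and its fall against the mean (-1.54 ± 0.34) was largest against 1C (-4.32).

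The receptors and adaptors that answer HMGB1 were mixed in these untreated cells. Of 20 Toll-like receptors, HMGB1 receptors and HMGB genes, 8 were higher and 6 lower, and of 28 adaptors and NF-kB genes, 7 and 8. Tlr4, the main signalling receptor of HMGB1, had 58.7, 76.03 and 79.9 CPM in Protocol 2 and 74.9 to 110.5 CPM (median 89.2) in Protocol 1 and did not pass (-0.33 ± 0.13), although it did without the third Protocol 2 replicate (-0.41) or the second 1C replicate (-0.36). Ly96, its co-receptor MD-2, was higher (0.74 ± 0.10), and the co-receptor Cd14 lower (-0.48 ± 0.11). Tlr2 had 93.6, 95.1 and 95.2 CPM in Protocol 2, 176, 181 and 179 CPM in 1A and 55.1, 53.5 and 44.2 CPM in 1B, and did not pass against the mean (-0.18 ± 0.081). Without the third 1B or the third 1C replicate it passed as lower (-0.21 and -0.22). Tlr9, the sensor of unmethylated DNA, had 102, 170.3 and 174 CPM in Protocol 2 and 23.7 to 72.1 CPM (median 33.6) in Protocol 1 (2.03 ± 0.20). Ager, which encodes RAGE, was below 2 CPM everywhere and fell to 0.246, 0.583 and 0.0849 CPM in Protocol 2, against 0.894 to 1.61 CPM (median 1.29) in Protocol 1. Hmgb1 itself had 36.9, 34.9 and 35.4 CPM in Protocol 2 and 40.4 to 56.6 CPM (median 49.7) in Protocol 1 (-0.45 ± 0.060), and Hmgb2, which is abundant in dividing cells, 10.6, 10.5 and 10.01 CPM and 15.5 to 41.99 CPM (median 30.5) in the same order (-1.41 ± 0.10). Tnip3, an inhibitor of NF-kB signalling, showed the largest fall of the adaptors, to 1.97, 2.54 and 2.63 CPM in Protocol 2, against 5.68 to 44.4 CPM (median 26.2) in Protocol 1.

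**Figure D3:**
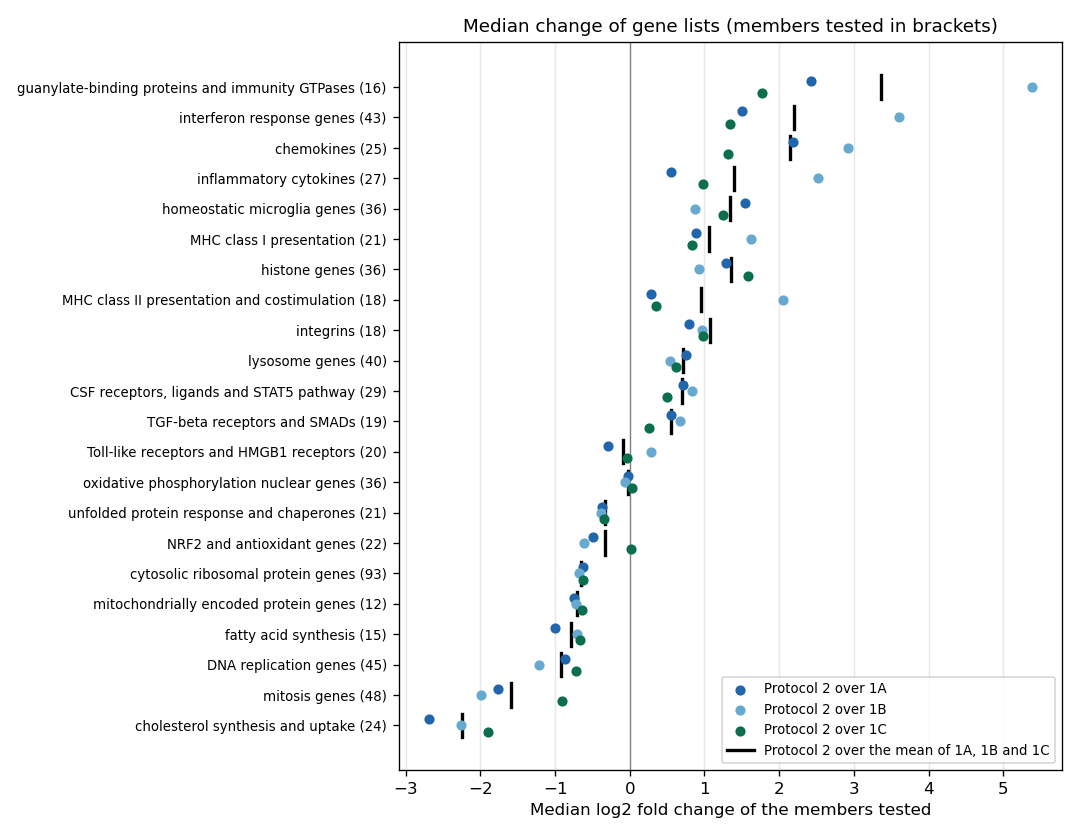
Median log2 fold change of 22 gene lists, Protocol 2 over Protocol 1 (black bars, mean of 1A, 1B and 1C) and over each variant (points). Guanylate-binding proteins and interferon genes stand farthest right and cholesterol genes farthest left, and the points of 1B lie apart from those of 1A and 1C in the interferon lists.

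Cholesterol synthesis genes were lower in Protocol 2 throughout. All 24 members tested were lower, 23 by at least 2-fold, and in all 24 every Protocol 2 library lay below every Protocol 1 library. Hmgcs1, an early enzyme of the pathway, had 59.4, 39.6 and 43.3 CPM in Protocol 2 and 125 to 288 CPM (median 221) in Protocol 1 (-2.16 ± 0.14, adjusted p = 8.67e-09). Cyp51, the lanosterol demethylase, had 32.7, 18.1 and 19.7 CPM in Protocol 2 and 126 to 284 CPM (median 205) in Protocol 1 (-3.14 ± 0.18). The first Protocol 2 replicate was the highest of its group for Cyp51, and still below all of Protocol 1. Over the variants, the median of the list was -2.69 over 1A, -2.26 over 1B and -1.90 over 1C.

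The promoters of the cholesterol genes were searched for known sites of their regulators. CCAAT, the site of the NF-Y factor that works beside SREBP, was found on either strand for 16 of 17 cholesterol genes with a window, against 42.4% of all tested genes. A high share was not particular to this list. It was 82.4% for unfolded protein response and chaperone genes and 75.6% for mitosis genes. Class I MHC genes, mostly higher in Protocol 2, had 73.7%, and complement genes had 14.3%. The sterol element TCACNCCAC was found for 1 of 17, Hmgcs1, and for 1.4% of all. No match says only that these letters are not in the window. The stretches at chr13:119690189-119690247 and chr5:4104698-4104751 show the elements in capitals, the first beginning 137 and the second 29 bases before the start.
Hmgcs1: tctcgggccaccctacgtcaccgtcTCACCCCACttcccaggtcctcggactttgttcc
Cyp51: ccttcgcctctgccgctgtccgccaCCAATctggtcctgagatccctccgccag

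Fatty acid synthesis moved with cholesterol, with 12 of 15 members lower and 1 higher. Fasn, the fatty acid synthase, had 62.4, 51.1 and 43.5 CPM in Protocol 2 and 189.8 to 358 CPM (median 257) in Protocol 1 (-2.39 ± 0.11). Acly, which makes acetyl-CoA for the pathway, changed by -1.03 ± 0.063. Scd2, a desaturase, had 117, 87.4 and 74.4 CPM in Protocol 2, against 460.3, 467 and 415 in 1A, 247, 238 and 300 in 1B and 178, 172 and 123 in 1C (-1.51 ± 0.16). Its relative Scd1 did not pass (0.59 ± 0.27), and was called higher without the second (0.45) or the third (0.75) 1B replicate.

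Genes of cholesterol efflux split. Of 19 LXR target and efflux genes, 8 were higher and 9 lower. Abca1, the pump that loads cholesterol onto lipoproteins, had 523, 673 and 623 CPM in Protocol 2, against 32.4, 32.1 and 32.5 in 1A, 151, 142 and 130.02 in 1B and 239, 183 and 237 in 1C (2.60 ± 0.082, adjusted p = 2.68e-14). Npc2, which hands cholesterol out of the lysosome, had 1974, 2105 and 2177 CPM in Protocol 2 and 895 to 1407 CPM (median 1031) in Protocol 1 (0.96 ± 0.086). Apoe, the main lipoprotein of the brain, had 772, 758 and 673 CPM in Protocol 2, against 6676, 5837 and 6501 in 1A, 12415, 9994 and 9173 in 1B and 18046, 18552 and 25603 in 1C (-3.92 ± 0.13). Abca1 and Apoe, both known targets of LXR, thus moved in opposite directions, and both were lowest in 1A among the variants. Srebf1, which LXR also drives, fell by 0.78 (SE 0.060).

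Of 25 PPAR, fatty acid uptake and oxidation genes, 6 were higher, 10 lower and 9 did not pass. Cd36, the fatty acid and scavenger receptor, had 814, 726 and 716 CPM in Protocol 2 and 1165 to 3565 CPM (median 2587) in Protocol 1 (-1.53 ± 0.11). Fabp4, a fatty acid binding protein, had 61.2, 59.4 and 56.5 CPM in Protocol 2 and 166 to 241 CPM (median 199) in Protocol 1 (-1.78 ± 0.089), while its relative Fabp5 did not pass (-0.00 ± 0.082).

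**Figure D4:**
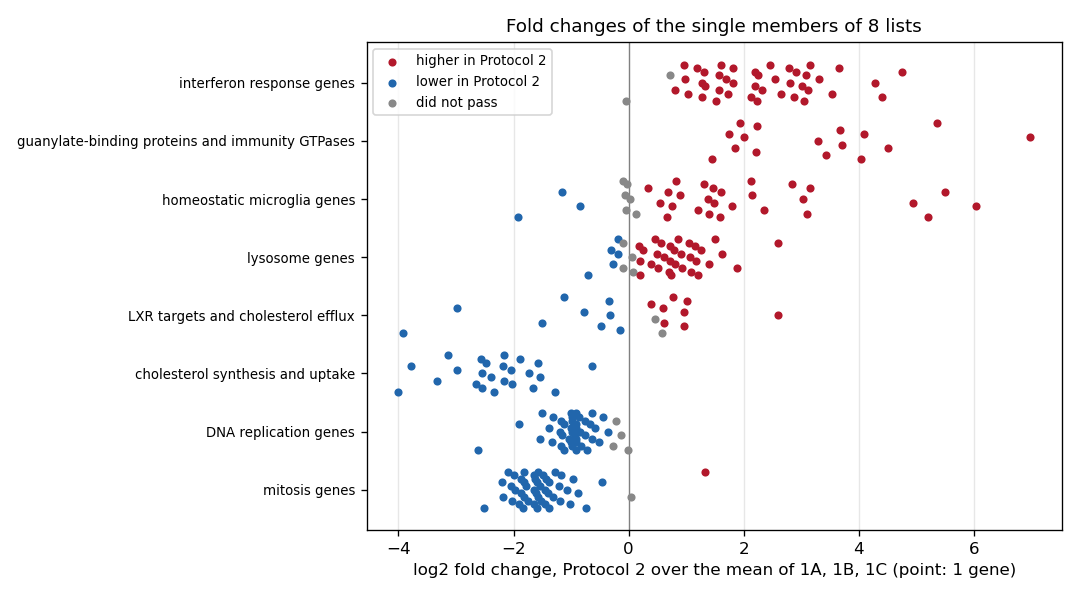
Log2 fold changes of the tested members of 8 gene lists, Protocol 2 over the mean of 1A, 1B and 1C, each point being 1 gene (red, higher in Protocol 2; blue, lower; grey, did not pass). All 24 cholesterol genes lie left of 0 and all 16 guanylate-binding protein and GTPase genes lie right of it, while LXR targets fall on both sides.

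Cell division genes were lower. Of 45 DNA replication genes, 41 were lower and none higher, and of 48 mitosis genes, 46 were lower and 1 higher. Mki67, the proliferation marker, had 18.9, 19.4 and 21.6 CPM in Protocol 2, against 117, 119 and 89.4 in 1A, 108, 121 and 142 in 1B and 53.8, 63.3 and 51.5 in 1C (-2.19 ± 0.17). Top2a, which untangles chromosomes, had 18.997, 18.4 and 18.03 CPM in Protocol 2 and 39.4 to 104 CPM (median 76.9) in Protocol 1 (-1.87 ± 0.15). Rrm2, which supplies deoxynucleotides, had 10.3, 10.8 and 8.40 CPM in Protocol 2 and 13.6 to 52.4 CPM (median 26.4) in Protocol 1 (-1.54 ± 0.18). In these genes 1C, the oldest culture, was the variant closest to Protocol 2. The median of the mitosis list was -1.76 over 1A, -1.99 over 1B and -0.91 over 1C. E2f2, an activator of S phase genes, had 3.40, 2.54 and 2.33 CPM in Protocol 2 and 5.99 to 48.8 CPM (median 13.4) in Protocol 1 (-2.62 ± 0.24). The mitosis gene that rose was Pttg1, securin, which had 38.7, 40.2 and 40.8 CPM in Protocol 2 and 11.1 to 24.6 CPM (median 14.9) in Protocol 1 (1.33 ± 0.14). E2F sites, searched as TTTCCCGC or TTTGGCGC on both strands, were found for 34.3% of 35 replication genes with a window and 3.22% of all.

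Brakes of the cycle did not move as a block. Cdkn1a, the p53-induced inhibitor p21, had 485, 472 and 468 CPM in Protocol 2 and 108 to 213 CPM (median 144) in Protocol 1 (1.69 ± 0.092), and Ccng1, another p53 target, changed by 1.17 ± 0.070. Cdkn1b (-0.64 ± 0.072) and Cdkn2c (-1.48 ± 0.13) were lower. Myc, a driver of growth, had 14.4, 12.7 and 13.5 CPM in Protocol 2 and 20.6 to 36.3 CPM (median 30.6) in Protocol 1 (-1.07 ± 0.075). Of 36 histone genes tested, 22 were higher and 1 lower. Hist1h1c had 289, 299.96 and 292 CPM in Protocol 2 and 54.3 to 125 CPM (median 91.3) in Protocol 1 (1.78 ± 0.086), whereas the variant histone H2afz, which is polyadenylated, fell with the replication genes (-0.85 ± 0.065).

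Lysosome genes rose broadly, 31 of 40 being higher and 5 lower, with a median of 0.71. Ctsl, a cysteine protease, had 5580.2, 5044 and 5472 CPM in Protocol 2, against 541, 545 and 502 in 1A, 1215, 1033 and 959 in 1B and 1207, 1128 and 1358 in 1C (2.60 ± 0.073, adjusted p = 1.35e-15). Ctsd, the aspartic protease, had 19114, 19624 and 19857 CPM in Protocol 2 and 6052 to 11647 CPM (median 8131) in Protocol 1 (1.26 ± 0.068). Lgmn, the asparaginyl protease, changed by 1.49 ± 0.077, and Ctsk, better known from osteoclasts, by 1.63 ± 0.17. Lipa, the acid lipase that frees cholesterol from lipoproteins, was the largest exception, with 966, 1034 and 979.7 CPM in Protocol 2 and 1074 to 2228 CPM (median 1729) in Protocol 1 (-0.71 ± 0.091). The CLEAR element TCACGTGA, bound by TFEB and its relatives, was present for 7 of 30 lysosome genes with a window and 2.04% of all. Those of Ctsd at chr7:142387894-142387951 and Gla at chrX:134601168-134601225 are shown in capitals.
Ctsd: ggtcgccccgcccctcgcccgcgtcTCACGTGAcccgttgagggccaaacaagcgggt
Gla: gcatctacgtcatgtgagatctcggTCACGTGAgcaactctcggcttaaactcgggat

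The element began 99 bases before the start of Ctsd and 195 before that of Gla. Gla, alpha-galactosidase, had 422, 424 and 442 CPM in Protocol 2 and 233 to 329 CPM (median 291) in Protocol 1 (0.62 ± 0.074). Not every gene that held it was higher, since Atp6v1a, a subunit of the proton pump, was lower against the mean (-0.27 ± 0.080). Its fall did not pass against 1A (-0.027) or 1C (-0.14).

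Receptors for opsonised and dying material mostly rose. Of 23 Fc and phagocytic receptors, 14 were higher and 5 lower. Fcgr1, the high-affinity IgG receptor, had 779, 995 and 1069 CPM in Protocol 2, against 98.8, 144 and 229.6 in 1A, 65.4, 69.5 and 56.8 in 1B and 261, 156 and 354 in 1C (2.79 ± 0.25). Fcgr4 rose by 2.22 ± 0.17. Mertk, the receptor of phosphatidylserine bridges, had 209, 273 and 267 CPM in Protocol 2 and 79.8 to 123 CPM (median 97.8) in Protocol 1 (1.32 ± 0.11), and its bridge Pros1, protein S, had 351, 410.2 and 407 CPM and 57.4 to 167 CPM (median 74.6) in the same order (2.12 ± 0.069). Axl, the related receptor, was lower against the mean (-0.40 ± 0.11) but above 1B, with 241, 285 and 286 CPM in Protocol 2, 545, 627 and 891 in 1A, 80.7, 84.05 and 84.4 in 1B and 799, 736 and 872 in 1C. Trem2, the lipid receptor of microglia, did not pass, with 673, 631 and 663 CPM in Protocol 2 and 421 to 1054 CPM (median 709) in Protocol 1.

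Complement and lectin genes gave further examples. Of 21 complement genes, 17 were higher and 3 lower. Serping1, the inhibitor of C1, had 27.6, 25.6 and 22.7 CPM in Protocol 2 and 0.0409 to 1.67 CPM (median 0.0959) in Protocol 1 (7.10 ± 0.41). C1qa had 1047, 1037 and 1000.2 CPM in Protocol 2, against 205, 235 and 281 in 1A, 566, 535 and 473 in 1B and 816, 816 and 1234 in 1C, and its rise over the mean (1.06 ± 0.11) did not pass against 1C alone (0.11). C3 did not pass against the mean, with 189, 248 and 241 CPM in Protocol 2, 303, 424 and 664 in 1A, 11.6, 30.9 and 13.7 in 1B and 498, 392 and 539 in 1C, and was called higher without the second 1B replicate (0.68). C5ar1, the anaphylatoxin receptor, fell by 0.90 (SE 0.065). Clec4a1, an inhibitory lectin of macrophages, had 183, 258 and 283 CPM in Protocol 2 and 16.6 to 56.8 CPM (median 30.9) in Protocol 1 (2.98 ± 0.15). Clec4e, the glycolipid receptor Mincle, had 21.2, 15.6 and 15.6 CPM in Protocol 2 and 13.7 to 389 CPM (median 210.5) in Protocol 1 (-2.75 ± 0.37). Among scavenger receptors, Cd5l rose (2.89 ± 0.23) and Colec12 fell (-2.02 ± 0.085).

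Genes of disease-associated microglia did not move as 1 set. Of 30, 19 were higher and 8 lower. Itgax, the integrin CD11c, had 236, 249 and 247 CPM in Protocol 2, against 71.005, 53.7 and 58.4 in 1A, 54.8, 39.8 and 51.8 in 1B and 188, 152 and 140.05 in 1C (1.64 ± 0.093). Gpnmb, a lysosome-linked glycoprotein, had 14351, 14824 and 15339 CPM in Protocol 2 and 6929 to 10433 CPM (median 8482) in Protocol 1 (0.78 ± 0.085). Spp1, osteopontin, overlapped between groups, with 11612, 12697 and 11946 CPM in Protocol 2 and 7974 to 13096 CPM (median 9056) in Protocol 1 (0.30 ± 0.081). Igf1, a trophic factor, had 445, 495 and 471 CPM in Protocol 2 and 706 to 1514 CPM (median 792) in Protocol 1 (-0.98 ± 0.078), Dkk2, an inhibitor of Wnt signalling, changed by -2.89 ± 0.20, and Lgals3 by -0.55 ± 0.088.

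Of 8 genes of developmental stages that the study displayed for these samples, 4 were higher, among them Crybb1 (3.03 ± 0.47), Csf1 (2.13 ± 0.10) and Lyz2 (0.35 ± 0.10), and Pf4 (-1.40 ± 0.12), Mcm5 (-1.38 ± 0.086), Dab2 (-0.70 ± 0.063) and Cd14 (-0.48 ± 0.11) were lower. Crybb1 was below 1 CPM in all libraries. Pf4, a platelet-factor chemokine of early microglia, had 52.5, 46.6 and 45.8 CPM in Protocol 2 and 95.7 to 222 CPM (median 117) in Protocol 1, with no overlap.

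Ribosomal protein genes were lower by small steps. Of 93 cytosolic ribosomal protein genes, 77 were lower and 2 higher, with a median of -0.66. Rps7 had 111, 120.2 and 121 CPM in Protocol 2 and 229 to 285 CPM (median 260.2) in Protocol 1 (-1.14 ± 0.069), whereas Rplp0 did not pass (-0.12 ± 0.065). Together these genes took 1.435% to 1.535% of counts in Protocol 2 and 2.268% to 2.525% in Protocol 1. Mitochondrially encoded genes took 0.884% to 1.06% in Protocol 2 and 1.32% to 1.87% in Protocol 1, and 10 of 12 were lower, among them mt-Nd1 (-1.47 ± 0.11). Of 36 nuclear genes of oxidative phosphorylation, 9 were higher, 5 lower and 22 did not pass. The pentose phosphate enzymes G6pdx (-0.98 ± 0.063), which recycles NADPH, Tkt (-1.24 ± 0.069) and Taldo1 (-1.13 ± 0.090) were lower. Of 21 unfolded protein response and chaperone genes, 4 were higher and 10 lower, among the lower the chaperone Hspa5 (-0.67 ± 0.069) and the factor Xbp1 (-0.77 ± 0.068). Ddit3, the stress factor CHOP, was higher, with 101, 117 and 107 CPM in Protocol 2 and 15.6 to 43.7 CPM (median 28.1) in Protocol 1 (1.98 ± 0.16).

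Of 29 glycolysis and hypoxia genes, 10 were higher and 12 lower, so that the list had no common direction. Aldoc, an aldolase, had 6.10, 4.46 and 5.39 CPM in Protocol 2 and 10.4 to 64.9 CPM (median 20.4) in Protocol 1 (-2.13 ± 0.19). Pfkfb3, which speeds glycolysis through fructose bisphosphate, had 267, 274 and 289 CPM in Protocol 2 and 65.7 to 112 CPM (median 101) in Protocol 1 (1.59 ± 0.055). The glucose transporters divided in the same way, Slc2a3 being higher (1.60 ± 0.16) and Slc2a1 lower (-0.38 ± 0.070). Among 22 NRF2 and antioxidant genes, 6 were higher and 11 lower, with the glutathione enzymes Gsr (-0.96 ± 0.11) and Gpx1 (0.64 ± 0.068) on opposite sides.

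Of 14 iron transport and storage genes, 6 were higher and 4 lower. Steap4, a metal reductase, had 7.74, 4.16 and 4.12 CPM in Protocol 2 and at most 0.105 CPM in Protocol 1. Fth1, the ferritin heavy chain, had 29654, 30499 and 31092 CPM in Protocol 2 and 11150 to 17282 CPM (median 14437) in Protocol 1 (1.11 ± 0.067). Cp, the ferroxidase ceruloplasmin, had 103, 106 and 93.9 CPM in Protocol 2, against 5.93, 8.24 and 7.64 in 1A, 6.21, 6.70 and 5.95 in 1B and 56.4, 34.7 and 81.01 in 1C (2.87 ± 0.19). Tfrc, the transferrin receptor, did not pass (-0.02 ± 0.076).

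Of 23 growth factors and matrix proteins, 13 were higher and 5 lower. Ereg, the EGF family ligand epiregulin, had 4.18, 3.83 and 3.95 CPM in Protocol 2 and at most 0.105 CPM in Protocol 1 (7.10 ± 0.47), and its relative Areg changed by 3.47 ± 0.57. Hgf, the ligand of MET, had 32.9, 34.9 and 32.2 CPM in Protocol 2 and 8.68 to 14.7 CPM (median 13.1) in Protocol 1 (1.48 ± 0.080). Fn1, fibronectin, fell to 229.9, 189.9 and 161 CPM in Protocol 2, against 207 to 655 CPM (median 381) in Protocol 1 (-1.02 ± 0.15). Pdgfa did not pass, with 26.7, 20.8 and 23.7 CPM in Protocol 2 and 16.1 to 26.04 CPM (median 23.4) in Protocol 1.

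Integrins, proteases and matrix genes were mostly higher, beside the higher marker sums of fibroblasts and astrocytes given above, whose part was not tested. Of 18 integrins, 14 were higher and 1 lower, and of 27 proteases and inhibitors, 17 were higher and 7 lower. Itga3, a laminin-binding chain, had 17.1, 13.6 and 13.96 CPM in Protocol 2 and 0.140 to 0.520 CPM (median 0.286) in Protocol 1 (5.52 ± 0.20). Itga4, which binds VCAM1, fell by 1.53, with 34.4, 35.6 and 44.1 CPM in Protocol 2 and 59.4 to 175 CPM (median 114) in Protocol 1. Mmp3, a stromelysin, had 116, 79.4 and 69.5 CPM in Protocol 2, against 0.123, 0.0479 and 0.154 in 1A, 2.26, 8.05 and 6.41 in 1B and 12.4, 6.58 and 12.2 in 1C (5.56 ± 0.33). Serpine2, an inhibitor of thrombin made by glia, had 179.7, 158 and 180.1 CPM in Protocol 2, 1.15, 1.29 and 1.33 in 1A, 27.7, 25.4 and 22.7 in 1B and 12.4, 9.64 and 15.2 in 1C (4.56 ± 0.093). Sparc, a matrix protein of glia and fibroblasts that microglia also make, had 189.6, 143 and 144 CPM in Protocol 2, 0.982, 0.144 and 0.666 in 1A, 15.9, 9.35 and 41.1 in 1B and 11.6, 10.6 and 8.45 in 1C (4.94 ± 0.35). All 3 were lowest in 1A, as were the fibroblast markers Dcn, at 51.3, 38.3 and 36.1 CPM in Protocol 2 and 0, 0.0479 and 0 CPM in 1A, and Mgp, at 71.9, 29.8 and 25.8 CPM in Protocol 2 and 0.0409, 0.0479 and 0.0513 CPM in 1A. The astrocyte markers Clu and Gfap had 130.2, 129.6 and 128 CPM and 35.1, 20.8 and 18.7 CPM in Protocol 2, against 0.256 to 11.8 CPM (median 2.45) and 0 to 13.9 CPM (median 2.57) in Protocol 1. The plasminogen genes Plau (-1.43 ± 0.11) and Plaur (-1.55 ± 0.15), of macrophages themselves, were lower.

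The mean of Protocol 1 hid opposite differences for some genes. Ccr2, the monocyte receptor of CCL2, had 3.68, 2.96 and 4.16 CPM in Protocol 2, 29.6, 33.1 and 46.03 in 1A, 0.526, 0.605 and 0.346 in 1B and 4.60, 3.62 and 3.77 in 1C. It was lower than 1A by 3.33 log2 units, higher than 1B by 2.83, and it did not pass against the mean. Chil3, a chitinase-like protein of monocytes and alternatively activated macrophages, had 1.15, 1.46 and 1.15 CPM in Protocol 2, 89.7, 63.04 and 82.2 in 1A, 0, 0.233 and 0 in 1B and 132, 172 and 77.9 in 1C. It did not pass against the mean (-2.95 ± 1.24), although it did without the third 1C replicate (-3.04). Fpr1, the formyl peptide receptor, had 10.6, 7.62 and 6.58 CPM in Protocol 2, 72.2, 80.96 and 70.4 in 1A, 0.158, 0.931 and 0.231 in 1B and 47.7, 46.7 and 20.8 in 1C. In all 3 genes 1A was the highest or near the highest group, 1B the lowest, and Protocol 2 lay between them. Vegfa, the endothelial growth factor, gave another split, with 22.2, 17.6 and 18.2 CPM in Protocol 2, 8.64, 6.18 and 5.84 in 1A, 12.2, 10.6 and 9.70 in 1B and 62.97, 80.3 and 72.2 in 1C. Mmp9, the gelatinase, had 17.03, 15.2 and 13.1 CPM in Protocol 2, 28.4, 27.2 and 28.4 in 1A, 3.00, 4.42 and 4.50 in 1B and 337, 335 and 392 in 1C, and both genes were highest in 1C. Sema4a and S100a11 were above Protocol 2 in 1A and 1C and below it in 1B, and Ttc28 was above Protocol 2 in 1B alone, at 68.97, 62.2 and 66.6 CPM against 34.1, 42.7 and 37.1 CPM in Protocol 2.

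**Figure D5:**
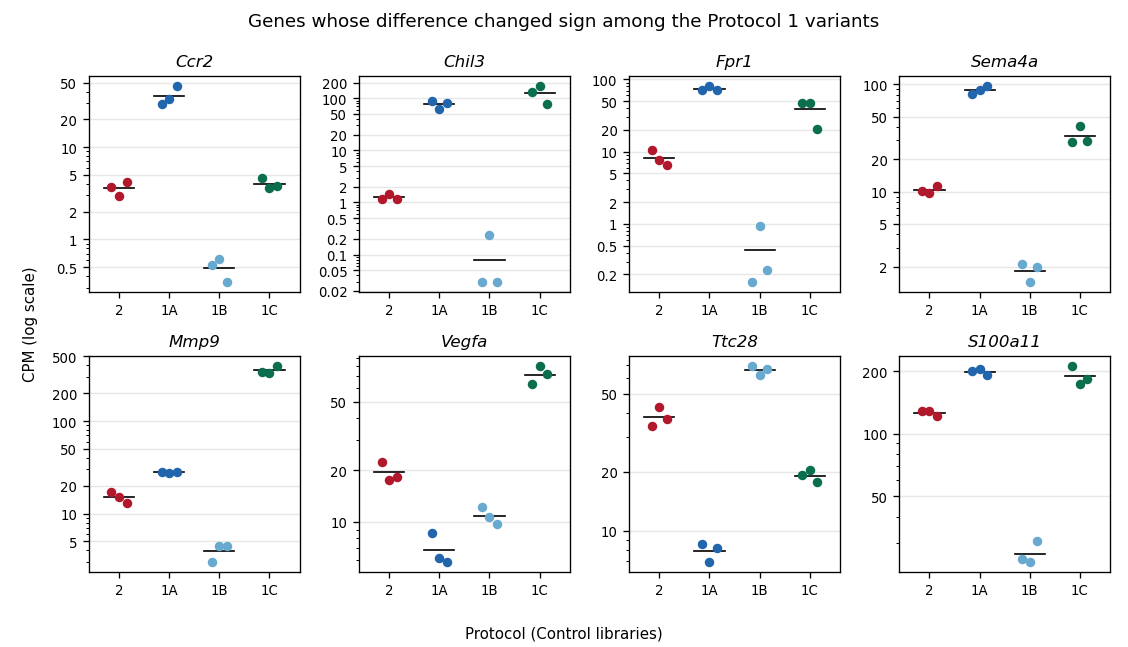
CPM of 8 genes in each of the 12 libraries (log scale, line at each group mean, values below 0.03 CPM drawn at 0.03), with Protocol 2 left of 1A, 1B and 1C. For Ccr2, Chil3, Fpr1, Sema4a and S100a11 the 1B libraries lie below Protocol 2 and the 1A libraries above it, and Vegfa and Mmp9 are highest in 1C.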

How the data were processed

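RNA from cultured mouse microglia was sequenced, and the 12 Control libraries of Protocols 2, 1A, 1B and 1C were compared, 3 per protocol as the labels group them. The deposited table holds the raw counts of 54532 genes in 30 libraries, which the authors made with the aligner HISAT2 2.0.5 and featureCounts 1.5.0-p3 (genome build not given in the sources used here). The counting was not stated to use strand or to share reads among near-identical genes.

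The counts were fitted with edgeR 4.0.16 (R 4.3.3, limma 3.58.1, statmod 1.5.0) on the 15 untreated control libraries of the series. The filter filterByExpr, followed by TMM scaling, left 17033 genes. Of the 15 libraries, 3 were of another protocol that was not compared. They entered the filter, the scaling and the estimate of the spread, and so bore on which genes were tested. The robust quasi-likelihood F test compared Protocol 2 with the mean of the 3 neonatal variants and with each of them, and a further F test compared 1A, 1B and 1C. All adjusted p-values are Benjamini-Hochberg values of this test over 17033 genes, with a threshold of 0.05. Standard errors are the absolute log2 fold change over the square root of F. Where a group had no count, the fold is a bound over a floor of 3 counts summed over that group, which covers counting error only. Depth spanned 15824006 to 24549108 counts per library. No 2 libraries were identical.

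Members and lists were chosen with earlier results of these data known. The genes named were the 10 protein-coding genes with the largest change in each direction (at least 10 CPM in the higher group, no overlap between the groups), by the same criteria up to 4 members of each of 47 lists in each direction and the 5 largest transcription factors in each direction, up to 2 abundant members of each list that did not pass, a fixed set of anchor genes, and up to 3 genes in each direction with the largest F among the variants. Acly, Adora1, Alox5ap, Areg, Atp6v1a, Axl, Bst2, C1qa, Cdkn1b, Cebpa, Clec4e, Ctsd, Ereg, Fcrls, Fn1, Gbp2, Gbp7, Gla, Gpr34, Grb10, Gsr, H2-K1, Hmgcs1, Hpgds, Hspa5, Ifit1, Il34, Il6, Irf9, Lgals3, Lin28b, Maf, Meg3, Mertk, Mest, Ndn, Ngp, P2rx7, Plagl1, Ptgs1, Retnlg, Siglech, Slc2a1, Slc2a3, Stat2, Steap4, Tap1, Tfrc, Top2a and Zbtb46 were named outside this rule and chosen after their values were seen. Some genes that the rule names are not reported here.

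Promoters came from RefSeq windows on GRCm38.p6 and matched 11504 of the tested genes by symbol. The alternatives were DESeq2 1.42.0 size factors or its Wald test, a block for the replicate number, no filter, a minimum log2 fold change of 1, the 12 libraries alone, each variant alone, no mitochondrial or rRNA-type genes, and leaving out each library. In counts simulated for Protocol 2 against Protocol 1 over 16275 genes, the fit recovered 66 of 96 genes changed 2-fold (68.8%) and 86 of 95 changed 4-fold (90.5%).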

Additional observations from a re-analysis of the deposited data

Results flagged for a closer look

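Of 204 genes named in the text and tested, 164 differed among 1A, 1B and 1C (adjusted p below 0.05, edgeR's F test). Y-linked genes and Xist were left aside. Of all genes tested, 38.6% differed among the variants. Some of the 204 were named for a large F among the variants or after their values were seen, which favours such genes. In 19 of the 164 Protocol 2 was called higher than 1 variant and lower than another, so that the direction for these genes depended on the variant. Opposite calls were not counted over all genes. The 3 contrasts share the Protocol 2 libraries, and the test of the difference is the F test among the variants. Below, the span is the largest minus the smallest of the 3 log2 fold changes.

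Chil3 had the widest span, 10.43, with log2 fold changes of -5.96 over 1A, 3.77 over 1B and -6.66 over 1C, and it rests on a single 1B library with counts. Fpr1 spanned 7.31 (-3.17 over 1A, 4.14 over 1B and -2.21 over 1C), and Ccr2 spanned 6.16 (-3.33 over 1A, 2.83 over 1B and -0.14 over 1C). Sema4a spanned 5.61 (-3.10 over 1A, 2.51 over 1B and -1.68 over 1C) and S100a11 spanned 2.91 (-0.66 over 1A, 2.25 over 1B and -0.59 over 1C). C3, the central complement component, spanned 4.66 (-1.04 over 1A, 3.58 over 1B and -1.08 over 1C), and Axl spanned 3.27 (-1.35 over 1A, 1.70 over 1B and -1.57 over 1C). In each of these 7 genes Protocol 2 was called above 1B and below 1A. Tlr2, with a span of 1.81, Csf2rb, with 1.45, and Ifi27l2a, with 1.64, had the same signs over 1A and 1B.

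Mmp9 spanned 6.48 (-0.89 over 1A, 1.93 over 1B and -4.55 over 1C), and its level in 1C was the highest of all groups. Vegfa spanned 3.37 (1.48 over 1A, 0.84 over 1B and -1.89 over 1C), with 1C above Protocol 2 and both 10-day cultures below it. Ttc28 spanned 3.06 (2.26 over 1A, -0.80 over 1B and 0.99 over 1C), with 1B above Protocol 2. Trem2 spanned 1.09 (0.54 over 1A, -0.56 over 1B and -0.19 over 1C) and was called in opposite directions against 1A and 1B, as was Tfrc, with a span of 0.86. Ptgs1 spanned 2.14 (0.86 over 1A, 1.28 over 1B and -0.86 over 1C). The spans of Hpgds (1.05), Ms4a7 (0.88) and P2ry6 (0.43) were smaller.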

How the results depend on the processing

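The counts of 5228 higher and 4189 lower genes stayed within 1.5 times their value under every alternative except a minimum log2 fold change of 1, which left 2970 higher and 837 lower genes. DESeq2 size factors gave 5388 and 3920, the DESeq2 Wald test 5377 and 4022, and no filter 6391 and 3905. The 12 libraries alone gave 4861 and 4337. That fit tested 32 homeostatic, 24 cytokine and 16 class II and costimulation genes. Of these, 23, 16 and 11 were higher, and 3, 3 and 1 were lower. Leaving out each library in turn gave 4765 to 5455 higher and 3626 to 4262 lower genes. Without the first Protocol 2 replicate, which held most of the pituitary RNA, 41 of 43 interferon genes were still higher, 24 of 25 cholesterol genes tested and 46 of 48 mitosis genes were lower, and 27 of 36 homeostatic genes were higher. The replicate block gave 5178 higher and 4143 lower genes and 6362 genes that differed among the variants, and beyond Cd74 and Chil3, which it called, it changed no call of a named gene. Same-numbered libraries of Protocol 2 and Protocol 1 were not paired, since their deviations from the group means correlated by -0.152 to 0.137, although each Protocol 2 library correlated best with its own number in 1A. With 1A alone as Protocol 1, the direction turned for C3 (-1.04), S100a11 (-0.66), Slc2a1 (0.038), Tfrc (0.31) and Trem2 (0.54). With 1B alone it turned for Arg1 (0.74), Axl (1.70), Ccr2 (2.83), Chil3 (3.77), Csf2rb (0.87), Fpr1 (4.14), Gpr34 (-0.36), Hpgds (-0.22), Ifi27l2a (0.95), Mmp9 (1.93), Ms4a7 (-0.29), Sema4a (2.51), Tlr2 (0.89) and Ttc28 (-0.80). With 1C alone it turned for C3 (-1.08), Lyz2 (-0.13), P2ry6 (-0.23), Ptgs1 (-0.86), S100a11 (-0.59), Spp1 (-0.071), Vegfa (-1.89) and Zbtb46 (-0.060). Calls were lost without a turn of direction for Atp6v1a, Fcrls, Lyz2 and Stat2 with 1A alone. With 1B alone they were lost for Cd14, Clec4e, Gfap, Grb10, Meg3, Prl, Slc2a3, Stat5a and Zbtb46. With 1C alone they were lost for Alox5ap, Atp6v1a, C1qa, Prl, Stat2 and Xist. These alternatives use only 1 of the 3 variants, whose levels differ. No such turn was found under the other alternatives. A turn was counted only for a gene that passed in the main fit or in the alternative. Tlr4, H2-Aa, Scd1, Ifi203 and Chil3, which did not pass, did under the DESeq2 Wald test, and Tlr4, H2-Aa and Chil3 also in the 12 libraries alone. With no filter all 5 passed, as did C3, Cd74, Fpr1 and Tnf. Genes near the detection limit, such as Il34, Siglech and Lin28b, rest on few counts.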

Other observations

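Of 21 fetal, imprinted and oncofetal genes, 11 were higher and 3 lower in Protocol 2. Mest, a paternally expressed gene of growing embryonic tissue, had 8.39, 7.37 and 4.58 CPM in Protocol 2 and 0.491 to 1.74 CPM (median 0.789) in Protocol 1 (2.77 ± 0.28). Ndn, necdin, had 3.19, 3.62 and 3.05 CPM in Protocol 2 and 0.103 to 1.96 CPM (median 0.597) in Protocol 1 (2.61 ± 0.38), and Grb10 and Plagl1 changed by 2.68 ± 0.52 and 2.46 ± 0.16. Meg3, the long RNA expressed from the maternal allele, was higher too (2.92 ± 0.59). Fibroblast markers moved with these genes, at 254 to 434 CPM in Protocol 2 and 2.30 to 134 CPM in Protocol 1, and their part was not tested. Of the oncofetal RNA-binding genes, Igf2bp3 fell to 22.7, 26.8 and 27.8 CPM in Protocol 2, against 50.4 to 60.6 CPM (median 51.996) in Protocol 1, and Lin28b, the brake on let-7 maturation, had at most 0.0416 CPM in Protocol 2 and 0.0597 to 1.44 CPM (median 0.383) in Protocol 1.

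Of the Ms4a family, membrane proteins of myeloid cells, 7 of 10 were higher and 1 lower. Ms4a4c had 196, 288 and 280.03 CPM in Protocol 2, against 12.1, 26.6 and 66.02 in 1A, 0.842, 2.65 and 0.866 in 1B and 31.8, 7.50 and 36.9 in 1C (4.54 ± 0.50), while Ms4a7 did not pass, with 302, 295 and 299.7 CPM in Protocol 2 and 177 to 385 CPM (median 331) in Protocol 1. Of 16 prostaglandin and leukotriene enzymes, 8 were higher and 3 lower. The prostaglandin genes Ptgs1 (0.43 ± 0.084) and Hpgds (0.33 ± 0.067) were higher beside Ptgs2, and the leukotriene genes Alox5ap (-0.61 ± 0.078) and Lta4h (-0.35 ± 0.079) were lower.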
